A study of Homo sapiens with 4 samples.

Results

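Interferon-stimulated genes are genes whose transcripts rise when a cell receives an interferon signal. They were followed here through their skipped-exon events, in which a middle exon is either kept or left out between its neighbours. The members are 53 genes chosen by name for their known induction by interferon, and an event belonged to a member when its middle exon lay inside that gene, on the same strand, in the GENCODE annotation of hg38. This gave 134 of the 44447 events listed in all, in 123 of 37641 exons and 42 of 13376 genes. The other 11 members had no listed event and were not measured. They are IFIT5, IFI6, IFI35, OAS1, TRIM21, PARP9, HERC5, UBE2L6, USP18, GBP1 and GBP2.

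The study set MDA-LM2 cells, a derivative of a human breast cancer line that spreads readily to the lung, against MDA-Parental cells, which are the established line MDA-MB-231 itself. Total RNA was sequenced from 2 samples of each line. All samples were untreated, and both lines were grown in serum-supplemented DMEM with no interferon named. The sources used here do not say whether MDA-LM2 is 1 clone or a population, or whether the samples of a line came from separate cultures.

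Interferons bind receptors on the cell surface and act through Janus kinases on transcription factors. A complex that holds STAT2 and IRF9 binds the interferon-stimulated response element (ISRE) in the promoters of target genes. The products sense foreign nucleic acid, block virus entry, translation or release, carry the signal further, or promote cell death, and some tumour cells make part of them without added interferon.

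The ISRE is shown because it is a DNA element that many members share. The members were chosen for known induction by interferon, which acts through this element. Its share among them is therefore no independent finding. RefSeq promoters of GRCh38.p14, which run from 250 bases before to 50 bases after a gene's start, were matched for 41 of the 53 members. The letters GAAA, any 2 bases and GAAA, searched on both strands, were in 26 of these 41 genes (63.4%), against 4.38% of all 27305 genes with such a promoter. The letters TTCNNNGAA of the gamma-activated site were in 11 of the 41 (26.8%), against 9.38% of all genes. Overlapping matches of the 2 motifs were not separated. A match describes these letters in this window and is not a binding site. The stretches below are 30 bases long, 5′ to 3′ on the strand of the gene, with the match in capitals, for some of the members with the lowest or highest ratios between the lines or with most reads.
TNFSF10, chr3:172523598-172523627, minus strand: gaggagcttcTTTCAGTTTCcctcctttcc
BST2, chr19:17405741-17405770, minus strand: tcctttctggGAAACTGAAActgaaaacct
IFI27, chr14:94110618-94110647, plus strand: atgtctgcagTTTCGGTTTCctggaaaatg
DDX60, chr4:168318821-168318850, minus strand: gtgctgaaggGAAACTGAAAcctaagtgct
TRIM5, chr11:5685082-5685111, minus strand: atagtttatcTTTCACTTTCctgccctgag
IFIT1, chr10:89392497-89392526, plus strand: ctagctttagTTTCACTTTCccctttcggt
IFIT3, chr10:89332425-89332454, plus strand: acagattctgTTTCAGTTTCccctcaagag
SAMD9, chr7:93118096-93118125, minus strand: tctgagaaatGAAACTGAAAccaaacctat

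PARP9 and DTX3L, whose products work as a pair, lie head to head on opposite strands of chromosome 3 and share 1 such stretch, at chr3:122564322-122564351. It reads as follows on the strand of DTX3L.
DTX3L, chr3:122564322-122564351, plus strand: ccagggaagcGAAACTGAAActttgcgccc

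Among the member exons compared, the largest difference in exon use between the lines was at exon 6 of CD40, of 62 nt, at chr20:46126640-46126701 of hg38 on the plus strand. It rests on 10 reads in MDA-LM2 and was not counted as a difference by the limits given below. A 102-nt version of it, which matches no annotated exon, was counted and is not printed. CD40 is a member of the tumour necrosis factor receptor family that binds CD40 ligand. The sequences below, from GENCODE release 29 transcripts, run 5′ to 3′ with the exon in capitals and 15 bases of each neighbouring exon in lower case. Leaving the exon out shortens the open reading frame to 203 codons, against 277 codons with it, and a CD40 form without this exon is known that is not anchored in the membrane.
CD40 exon included: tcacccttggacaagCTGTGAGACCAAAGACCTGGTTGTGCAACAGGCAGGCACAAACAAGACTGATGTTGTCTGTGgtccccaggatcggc
CD40 exon skipped: tcacccttggacaaggtccccaggatcggc

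The deposited tables hold 1 set of values per line, taken here as pooled over its samples. No replicate error could be had, so no p-value is given, and each interval covers counting error only. The event reads of an event, those that match the isoform with the exon, the isoform without it or both, summed to 17366605 over 39981 events in MDA-LM2 and to 21716937 over 43626 events in MDA-Parental. Every level below is the event reads of a gene's best covered event per 1000000 event reads of its line, written RPM. A higher level can mean more cells with the transcript or more RNA per cell, which cannot be told apart. Of 6 mesenchymal markers that define the line, VIM and CAV1 had no event and SPARC had 1 read in each line. The other 3 were read in both lines: CD44 at 2203 RPM in MDA-LM2 against 2511.5 RPM in MDA-Parental, AXL at 166 against 180 RPM and ZEB1 at 33.4 against 56.4 RPM. Of 5 epithelial markers, ESRP2 had 401 reads against 289, or 23.1 against 13.3 RPM (ratio 1.74, 1.49 to 2.03), CDH1 had 11 against 13 reads, ESRP1 had 3 against 8 and the other two had no event. Their part in the results was not tested. Of 7 leukocyte markers, PTPRC (5 against 2 reads) and CSF1R (3 against 3 reads) had an event in both tables. No marker of endothelium, fibroblasts or lung epithelium had an event in both. In MDA-Parental only, the leukocyte markers CD3E and ITGAM had 1 listed event each and the fibroblast marker PDGFRA had 2.

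Among the 40 interferon-stimulated genes compared, 2 were at least 2-fold higher in MDA-LM2 (5%, against 3.17% of all 10213 genes), 6 were at least 2-fold lower (15%, against 8.79% of all genes) and 32 were neither. The death receptor ligand TNFSF10, the virus tether BST2, the receptor CD40, the sensor DDX60, the apoptosis factor XAF1 and the GTPase MX2 were lower, while the nuclear body protein SP110 and the restriction factor TRIM5 were higher. IFI27, which encodes a mitochondrial membrane protein, had listed events in MDA-Parental only. A gene was counted with a ratio of at least 2-fold and an exact conditional 95% interval that left out 1, and a gene needed 20 event reads over both lines to be compared. With 2 and 6 members behind them, the members' shares are imprecise, and no excess over all genes is read from them.

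The median log2 ratio of the 40 members was -0.26, with quartiles of -0.86 and 0.23. Over all genes it was -0.12, with quartiles of -0.50 and 0.22. The ratio was above 1 in 15 members and below 1 in 25. The interval lay wholly below 1 in 19 members (47.5%), against 36.6% of all genes, and wholly above 1 in 9 members (22.5%), against 22.7% of all genes. The members therefore spread to both sides of the median gene, and no common direction holds for the list.

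**Figure D1:**
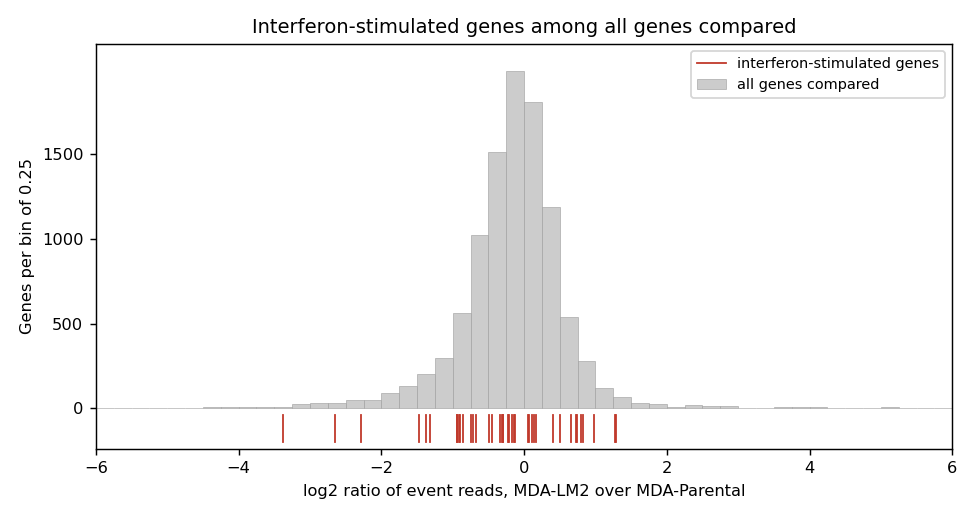
Number of genes per bin of 0.25 in the log2 ratio of event reads, MDA-LM2 over MDA-Parental, for all 10213 genes compared (grey bars), with each of 40 interferon-stimulated genes as a red line under the axis. Most members lie within the bulk of all genes, and TNFSF10, BST2 and CD40 are the 3 lines farthest to the left, at -3.38, -2.65 and -2.28.

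The nucleic acid sensors come first in the pathway. DDX58, which encodes RIG-I, the sensor of RNA with a 5′ triphosphate end, had 43.2 RPM in MDA-LM2 against 30.6 in MDA-Parental (ratio 1.41, 1.27 to 1.57). IFIH1, which encodes MDA5, the sensor of long double-stranded RNA, stood at 7.83 against 7.14 RPM (ratio 1.10, 0.865 to 1.39). DHX58, which encodes LGP2, a helper of both, stood at 1.27 against 2.39 RPM (ratio 0.529, 0.306 to 0.887). None of these 3 passed 2-fold at the best covered event. DHX58 passed it with the sum over its events (0.424, 0.290 to 0.608) and with inclusion and exclusion reads alone (0.370, 0.176 to 0.724). With reads that match neither isoform added it did not (0.556). DDX60, a helicase tied to RIG-I signalling, was lower, with 13 reads against 45, or 0.749 against 2.07 RPM (ratio 0.361, 0.179 to 0.681). With reads that match neither isoform added, the DDX60 ratio was 0.686 and no longer 2-fold, and with inclusion and exclusion reads alone it was 0.195 (0.0369 to 0.669). Its best covered event is on a 150-nt exon at chr4:168265465-168265614. The annotation has it as untranslated in a 5-exon transcript, and it is not an exon of the gene's main annotated transcript. Only 2 reads in MDA-LM2 and 1 in MDA-Parental were inclusion reads. IFI16, which detects DNA in nucleus and cytoplasm, had many reads in both lines, 1313 against 2743, or 75.6 against 126 RPM (ratio 0.599, 0.560 to 0.640). Its 6 events with at least 20 reads gave log2 ratios between -0.75 and -0.72. These events overlap and share reads, so they are not separate measurements.

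The transducers and transcription factors of the response had 0 members past 2-fold out of 5. Over all genes 3.17% were higher and 8.79% lower. STAT2, a transcription factor of the type I interferon response, had 4.38 RPM in MDA-LM2 against 6.12 in MDA-Parental (ratio 0.715, 0.532 to 0.954). IRF9, which carries STAT2 to the ISRE, stood at 4.95 against 8.93 RPM (ratio 0.554, 0.425 to 0.718), at exons that overlap another gene on the same strand, so its reads may include that gene's. IRF1, a factor induced most by interferon gamma, stood at 35.1 against 32.5 RPM (ratio 1.08, 0.968 to 1.21). IRF7, the factor that amplifies type I interferon, and NLRC5, the activator of class I antigen presentation genes, had few reads. IRF7 had 13 reads against 18 (0.749 against 0.829 RPM), with a ratio of 0.903 that turned round to 2.19 (1.69 to 2.87) with reads that match neither isoform added, and NLRC5 had 15 against 30 (0.864 against 1.38 RPM). At these best covered events the intervals of 0.407 to 1.95 and 0.313 to 1.2 include 1. With the sum over all its events NLRC5 had a ratio of 0.422 (0.269 to 0.644), past 2-fold.

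Effectors that act on RNA held the members with most reads. IFIT3 had 7630 reads in MDA-LM2 against 5490 in MDA-Parental, or 439 against 253 RPM (ratio 1.74, 1.68 to 1.80). IFIT1, which binds viral RNA that lacks a methylated cap and works in a complex with IFIT3, had 3814 against 2865, or 220 against 132 RPM (ratio 1.66, 1.59 to 1.75). SAMD9, an inhibitor of poxvirus protein synthesis, had 5518 against 3512, or 318 against 162 RPM (ratio 1.96, 1.88 to 2.05), just short of 2-fold. These 3 members had higher levels in MDA-LM2 and stayed under 2-fold by event reads. With inclusion and exclusion reads alone, IFIT3 had a ratio of 1.15 (0.730 to 1.79), an interval that includes 1, while IFIT1 (2.15) and SAMD9 (2.34) passed 2-fold. IFIT genes are close copies of each other, and reads could be placed in the wrong copy. IFIT2 had 5 reads against 9 (0.288 against 0.414 RPM), too few to compare and in an exon that overlaps another gene.

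EIF2AK2, which encodes PKR, the kinase that stops translation on double-stranded RNA, stood at 57.9 RPM in MDA-LM2 against 36.7 in MDA-Parental (ratio 1.58, 1.44 to 1.74). ADAR, which edits adenosine in double-stranded RNA and so hides the cell's own RNA from sensors, stood at 238 against 268 RPM (ratio 0.888, 0.853 to 0.925). SAMHD1, which breaks down the nucleotides that viral reverse transcription needs, stood at 24.1 against 30.6 (ratio 0.788, 0.696 to 0.892). The oligoadenylate synthetases make the messenger that turns on RNase L. OAS2 had 3.28 against 4.05 RPM, OAS3 1.44 against 1.57 and the related OASL 13.5 against 12.1, and each interval included 1. The median log2 ratio of the 9 RNA-directed effectors compared was 0.17, against -0.12 over all genes. None passed 2-fold in either direction, where 3.17% of all genes were higher and 8.79% lower.

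Levels of different genes can be set side by side only per length. In RPM per kilobase of the event's exons, the level of IFIT3 was 168 in MDA-LM2 against 96.7 in MDA-Parental, and that of EIF2AK2 was 168 against 106. ADAR stood at 145 against 163. These 3 were the highest in MDA-LM2. IFI16 stood at 100.01 against 167 and LAP3 at 85.03 against 163, and these 2 with ADAR were the highest in MDA-Parental. The order of the most abundant members differed between the lines on this scale.

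**Figure D2:**
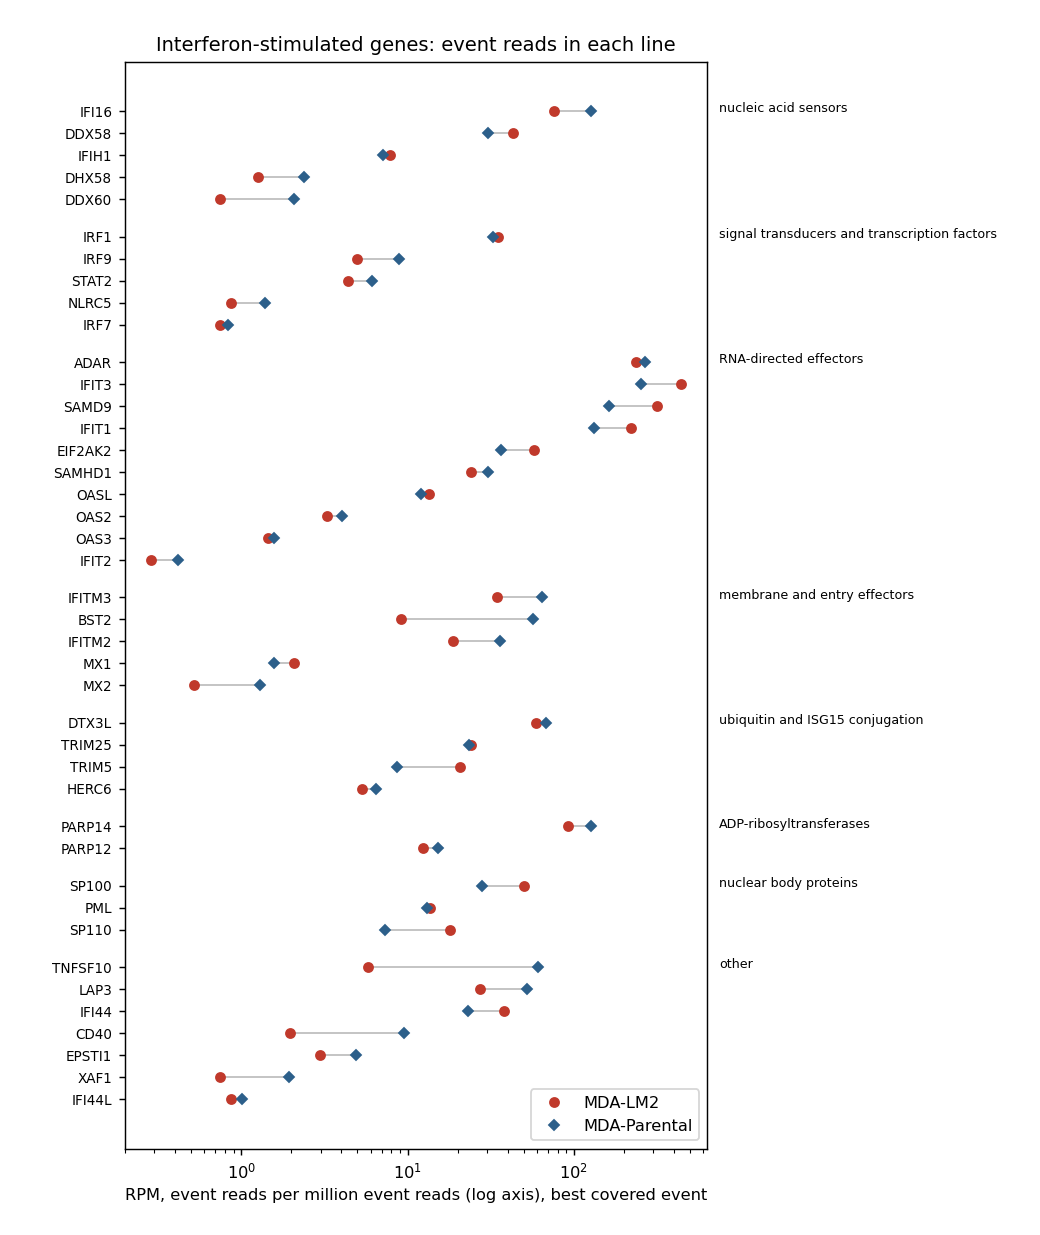
Event reads per 1000000 event reads (RPM) at the best covered event of each member with an event in both tables, on a log axis, in MDA-LM2 (red circles) and MDA-Parental (blue diamonds), grouped by role. The widest gaps are in TNFSF10 (5.82 against 60.7), BST2 (9.10 against 57.2) and CD40 (1.96 against 9.53), while IRF1 (35.1 against 32.5), TRIM25 (24.2 against 23.3) and PML (13.7 against 13.1) nearly coincide.

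Members that act at membranes and on virus entry or release were mostly below their MDA-Parental level. BST2, or tetherin, which holds budding virus at the cell surface, was lower, with 158 reads in MDA-LM2 against 1242 in MDA-Parental. That is 9.10 against 57.2 RPM, a ratio of 0.159 (0.134 to 0.188). The event is on a 67-nt coding exon at chr19:17404371-17404437. IFITM3 and IFITM2, which block the fusion of virus with endosomes, stood at 34.5 against 64.6 RPM (ratio 0.534, 0.485 to 0.588) and at 18.8 against 36.0 (ratio 0.523, 0.458 to 0.596), just short of 2-fold. They are near-identical copies, and reads may be divided wrongly between them. MX2, a dynamin-like GTPase that blocks entry of HIV into the nucleus, was lower on few reads, 9 against 28, or 0.518 against 1.29 RPM (ratio 0.402, 0.167 to 0.876), and was no longer 2-fold with reads that match neither isoform added (0.684). Its 5 events gave log2 ratios between -1.31 and -0.36. Its relative MX1, which blocks influenza virus, stood at 2.07 against 1.57 RPM, and the interval of its ratio, 0.805 to 2.18, included 1. A second MX1 event gave a log2 ratio of 1.13 beside 0.40. With the sum over its events MX1 had a ratio of 1.64 (1.14 to 2.39), an interval that leaves out 1. Of these 5 members, 2 were lower (40%, against 8.79% of all genes) and 3 neither. Their median log2 ratio was -0.94, against -0.12 over all genes. With so few members, no result about the group is read from these counts.

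Of the ubiquitin ligases and ISG15 enzymes with events, 1 of 4 was higher (25%, against 3.17% of all genes). That is too few members for a result about the group. TRIM5, which recognises retroviral capsids, had 360 reads in MDA-LM2 against 187 in MDA-Parental, or 20.7 against 8.61 RPM (ratio 2.41, 2.01 to 2.89). The event is on a 154-nt exon in the 5′ untranslated region at chr11:5683986-5684139. Its 3 events with at least 20 reads gave log2 ratios between 1.25 and 1.27, but the other two overlap another gene on the same strand, and only the 154-nt event lies inside TRIM5 alone. TRIM25, the ligase that activates RIG-I, stood at 24.2 against 23.3 RPM (ratio 1.04, 0.908 to 1.18). HERC6, a relative of the main human ISG15 ligase, stood at 5.30 against 6.49 (ratio 0.816, 0.620 to 1.07), and DTX3L at 59.1 against 68.2 (ratio 0.867, 0.80 to 0.940). The ADP-ribosyltransferases PARP14 and PARP12 stood at 92.2 against 126 RPM (ratio 0.730, 0.686 to 0.776) and 12.4 against 15.3 (ratio 0.811, 0.680 to 0.966), and neither passed 2-fold.

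All 3 members of nuclear bodies had a ratio above 1, as had 4160 of all 10213 genes. A list of 3 is too short for a result about the group. SP110, a nuclear body protein that binds chromatin, was higher, with 311 reads in MDA-LM2 against 160 in MDA-Parental, or 17.9 against 7.37 RPM (ratio 2.43, 2.00 to 2.96). The event is on a 148-nt coding exon at chr2:230216781-230216928, and its 4 events with at least 20 reads gave log2 ratios between 0.97 and 1.41. SP100, a constant part of PML bodies, stood at 49.9 against 28.2 RPM (ratio 1.77, 1.59 to 1.97). Its 5 events gave log2 ratios between 0.58 and 1.09. PML, which builds these bodies, stood at 13.7 against 13.1 RPM (ratio 1.05, 0.878 to 1.25). SP110 and SP100 are of the same protein family and lie close to each other on chromosome 2. The median log2 ratio of the 3 members was 0.82.

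TNFSF10 had the lowest ratio of the 40 members. It encodes TRAIL, a ligand that triggers apoptosis through death receptors. It had 101 reads in MDA-LM2 against 1319 in MDA-Parental, or 5.82 against 60.7 RPM, a ratio of 0.0958 (0.0774 to 0.117), which is 10.4-fold lower. With inclusion and exclusion reads alone the ratio was 0.037 (0.0075 to 0.112). Its event is on a 105-nt coding exon at chr3:172509217-172509321, and a second event gave a log2 ratio of -3.71 beside -3.38. CD40 had 34 reads against 207, or 1.96 against 9.53 RPM (ratio 0.205, 0.139 to 0.296), at a 94-nt coding exon at chr20:46123126-46123219. All 6 of its events with at least 20 reads had log2 ratios between -2.76 and -2.0. These CD40 events share reads, so they are not separate measurements. XAF1, which opposes an inhibitor of apoptosis, had 13 reads against 42 at an 86-nt coding exon at chr17:6762155-6762240, or 0.749 against 1.93 RPM (ratio 0.387, 0.191 to 0.735). A further 7 XAF1 events, with 13 to 40 reads in MDA-Parental, were not listed for MDA-LM2.

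IFI27 had no listed event in MDA-LM2 and 6 in MDA-Parental. The best covered of them is on a 221-nt exon at chr14:94116074-94116294. Every listed event had at least 20 reads of all classes, so an event that is not listed holds at most 19 event reads if that is the only condition for listing. This gives at most 1.09 RPM in MDA-LM2, against 230 reads or 10.6 RPM in MDA-Parental, a ratio of at most 0.103, or at least 9.68-fold lower. By event reads this event ranked 6 of the 4466 events listed for MDA-Parental only, of which 15 had 100 reads or more. For the members together, 14 events, or 10.4% of their events in MDA-Parental, were listed there only, against 10.2% of all events. None was listed for MDA-LM2 only. These 14 lie in IFI27, XAF1 and IRF7.

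The remaining members compared were not past 2-fold. LAP3, a leucine aminopeptidase, had 27.3 RPM in MDA-LM2 against 52.2 in MDA-Parental (ratio 0.523, 0.469 to 0.583), just short of 2-fold. IFI44, whose product is linked to slower cell growth, stood at 38.3 against 23.1 RPM (ratio 1.66, 1.47 to 1.86). Its neighbour IFI44L had 0.864 against 1.01 RPM, with an interval of 0.411 to 1.72. EPSTI1 stood at 2.99 against 4.93 RPM (ratio 0.608, 0.428 to 0.854).

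**Figure D3:**
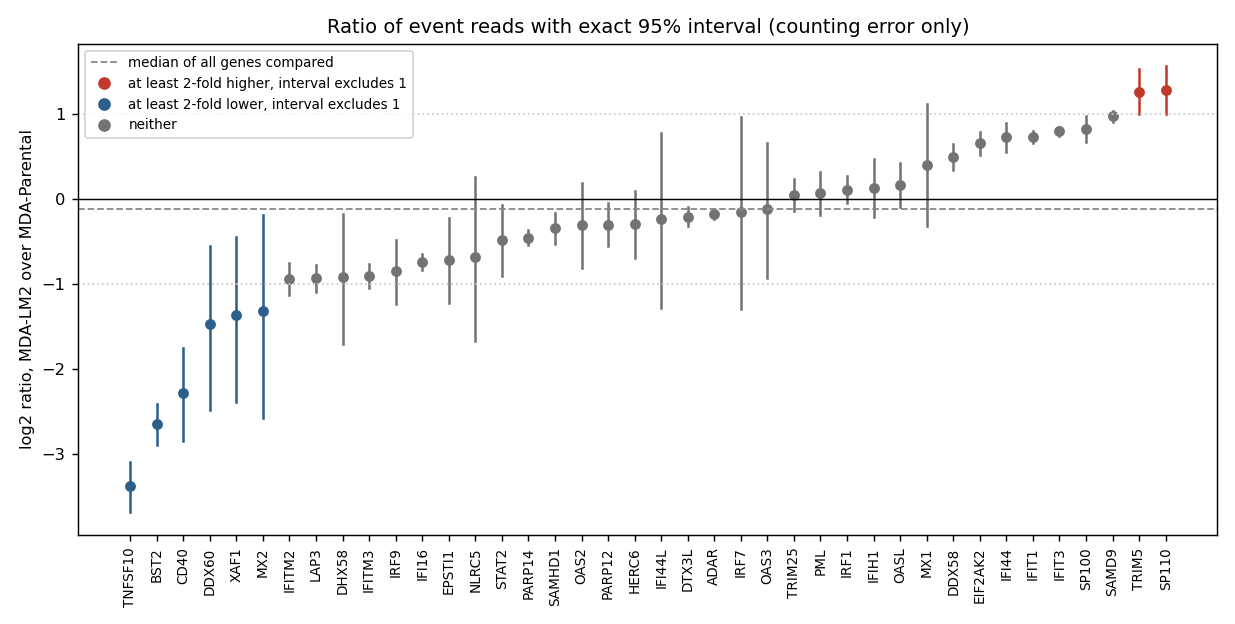
Log2 ratio of event reads, MDA-LM2 over MDA-Parental, for the 40 members compared, in rising order, with exact 95% intervals for counting error. Blue marks the 6 members at least 2-fold lower, red the 2 at least 2-fold higher and grey the other 32. Dotted lines mark 2-fold, and the dashed line is the median of all genes, -0.12.

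Members with the ISRE letters lay on both sides of a ratio of 1. Of members with a ratio above 1 and a matched promoter, 8 of 13 held them, and of those with a ratio below 1, 11 of 18. The median log2 ratio was -0.21 in members with the letters and -0.23 in those without. Of the 6 lower members, 4 had a matched promoter and 3 of these held the letters. Of the 2 higher members, TRIM5 held them and SP110 did not.

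Genes upstream of these members and other interferon targets were read from lists of 85 genes, of which 51 could be compared. None was at least 2-fold higher (3.17% of all genes were) and 5 were lower (9.80%, against 8.79% of all genes). The share of lower genes is near that of all genes, and nothing particular to the lists is read from these counts. Of 8 receptors and kinases 1 was lower, JAK1, the kinase that type I and type II receptors share, with 11 reads in MDA-LM2 against 36 in MDA-Parental (ratio 0.382, 0.175 to 0.767). These few reads, 0.633 against 1.66 RPM, are from the best covered of its 3 events, so the JAK1 ratio is limited by depth. Of 6 sensors and adaptors 1 was lower, AIM2, the DNA sensor of the inflammasome, with 16 reads against 80 (ratio 0.25, 0.136 to 0.431). Of 7 negative regulators 2 were lower. They were NLRX1, a mitochondrial brake on MAVS, at 22 against 62 reads (ratio 0.444, 0.260 to 0.732), and RNF125, a ligase that marks RIG-I for destruction, at 39 against 156 (ratio 0.313, 0.214 to 0.446). Of 26 other interferon-stimulated genes 1 was lower, SLFN5, at 174 against 573 reads (ratio 0.380, 0.319 to 0.451). None of the 4 transducers compared passed 2-fold. No event was listed for the 4 interferon ligands of the list, so their level was not measured. The median log2 ratio of the 51 genes was -0.16.

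Exon use in most members differed little between the lines. In the authors' deposited table, the difference is the inclusion level in MDA-LM2 minus that in MDA-Parental, and the level is the estimated fraction of transcripts that keep the exon. Where inclusion and exclusion reads together numbered 10 or more in each line, 72 exons of 34 members were compared. The Bayes factor there is the ratio of the evidence for a difference in level to the evidence for none. An exon was counted when it reached 10 and the difference reached 0.2 in size. Of these 72, 1 was higher in MDA-LM2, in CD40, and 0 were lower. Over all 21631 exons compared, 0.846% were higher and 0.254% lower. The median difference was 0, with quartiles of -0.01 and 0.02, against 0 with quartiles of -0.02 and 0.02 over all exons. The levels of the lines lay within 0.1 of each other in 67 of the 72 exons (93.1%), against 86.8% of all exons. The median number of inclusion plus exclusion reads was 93.5 in MDA-LM2 and 108 in MDA-Parental.

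**Figure D4:**
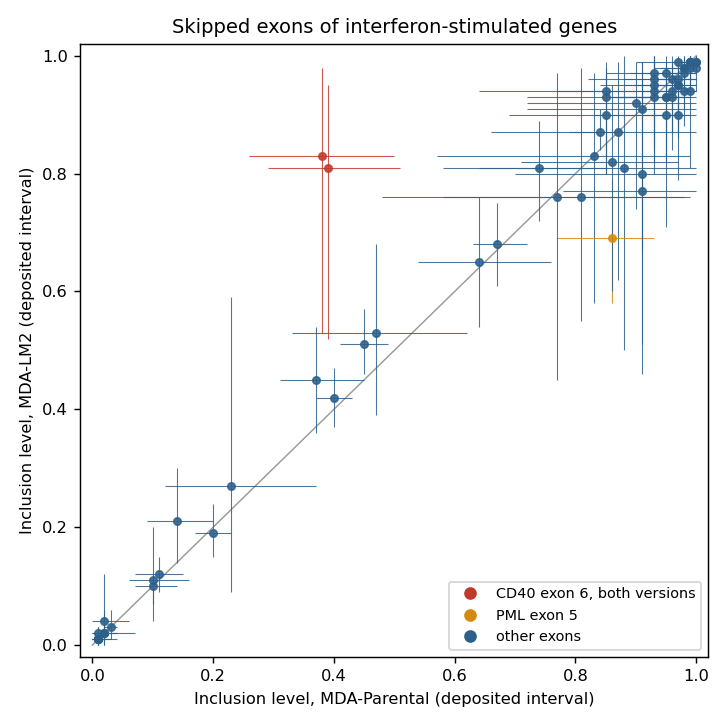
Inclusion level in MDA-LM2 (vertical axis) against MDA-Parental (horizontal axis) for the 72 exons of members compared, with the intervals of the deposited tables. Most points lie on the line of equal level, and the 2 versions of CD40 exon 6, at 0.83 and 0.81 against 0.38 and 0.39, lie far above it.

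The CD40 exon printed above appears in the tables in 2 versions, the annotated 62-nt exon and a 102-nt version that ends at position 46126741 and matches no annotated exon. For the 102-nt version the inclusion level was 0.81 (0.52 to 0.95) in MDA-LM2 against 0.39 (0.29 to 0.51) in MDA-Parental, a difference of 0.42 with a Bayes factor of 10.75. It had 15 inclusion and 0 exclusion reads in MDA-LM2, against 41 and 22 in MDA-Parental. For the 62-nt exon the level was 0.83 (0.53 to 0.98) against 0.38 (0.26 to 0.50), a difference of 0.45 with a Bayes factor of 8.91, just under the limit. It had 10 inclusion and 0 exclusion reads in MDA-LM2, against 29 and 22 in MDA-Parental. The 22 exclusion reads of both versions lie on the same junction, from exon 5 to exon 7, so these are not 2 separate results. Exclusion reads made up 0% in MDA-LM2 (exact Clopper-Pearson 95% interval 0 to 21.8) and 34.9% in MDA-Parental (23.3 to 48.0) for the 102-nt version, and the intervals do not overlap. The transcript was also scarcer in MDA-LM2, as above, and the difference in exon use rests on 15 reads there. No exon was counted with a Bayes factor of 20 as the limit, or where 20 inclusion and exclusion reads were required in each line. For the fifth exon of CD40, the neighbour upstream, the level was 0.82 against 0.86 in the event with exon 6 downstream. In a second event of the fifth exon, with exon 7 downstream, it was 0.66 (0.37 to 0.99) against 0.90 (0.76 to 0.98). That event had 8 inclusion and 0 exclusion reads in MDA-LM2, fewer than the 10 required.

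The next largest difference was in PML. Exon 5 of 144 nt, at chr15:74032572-74032715, had an inclusion level of 0.69 (0.58 to 0.79) in MDA-LM2 against 0.86 (0.77 to 0.93) in MDA-Parental, a difference of -0.17 with a Bayes factor of 2.44, so it was not counted. It had 103 inclusion and 16 exclusion reads in MDA-LM2, against 134 and 6 in MDA-Parental. Exclusion reads made up 13.4% (7.88 to 20.9) against 4.29% (1.59 to 9.09), and these intervals overlap. The exon holds 48 codons and keeps the reading frame, with 882 codons when included and 834 when skipped. Both products read as follows, with the exon in capitals and its neighbours in lower case.
PML exon included: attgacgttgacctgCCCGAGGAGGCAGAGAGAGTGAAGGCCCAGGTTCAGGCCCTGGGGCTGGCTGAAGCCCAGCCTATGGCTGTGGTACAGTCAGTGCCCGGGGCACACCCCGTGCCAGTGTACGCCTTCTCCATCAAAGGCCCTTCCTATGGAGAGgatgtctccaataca
PML exon skipped: attgacgttgacctggatgtctccaataca

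Among exons where inclusion and exclusion reads numbered 20 or more in each line, 58 in 27 members, the next differences were 0.08 or less. A 127-nt exon of IRF1 stood at 0.45 in MDA-LM2 against 0.37 in MDA-Parental, from 131 and 128 inclusion reads and no exclusion read in either line. A 92-nt exon of IRF1 stood at 0.21 against 0.14, with 27 inclusion reads and 1 exclusion read against 21 and 0. OASL had a 242-nt coding exon at 0.93 against 0.85, with 125 inclusion reads and 1 exclusion read against 115 and 3. A 1536-nt coding exon of DTX3L stood at 0.90 against 0.97, with 821 and 1234 inclusion reads and no exclusion read. A 467-nt exon of IFI44 stood at 0.81 against 0.74, with 654 and 11 reads against 490 and 12. The Bayes factors of these 5 were between 0.28 and 0.41. In 29 of the 72 exons no read in either line skipped the exon, and 3 of these, in PARP14 and IRF1, nevertheless had a deposited level under 0.5 in both lines. For PARP14 exons of 2246 and 243 nt the level was 0.42 against 0.40 and 0.19 against 0.20, with 0 exclusion reads. The deposited levels also draw on reads that match both isoforms, of which the longer exon's event had 478 against 848.

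Among the exons compared, 32 (44.4%) had a level of at least 0.9 in both lines, against 32.7% of all exons, 13 (18.1%) had at most 0.1 in both, against 24.1% of all exons, and 27 lay elsewhere. The exons that were skipped in nearly all transcripts carried most exclusion reads. IFIT1 had 390 exclusion reads in MDA-LM2 and 214 in MDA-Parental, shared by all 4 of its events. The 235-nt exon in its 5′ untranslated region, at chr10:89393107-89393341, had 12 inclusion reads against 6 and a level of 0.02 in both lines. The share of exclusion reads was 97.0% (94.8 to 98.4) against 97.3% (94.2 to 99.0). A 97-nt version of that exon stood at 0.02 against 0.01, and later exons of 114 and 109 nt at 0.10 against 0.10 and 0.12 against 0.11. A 61-nt exon of TRIM25 (chr17:56912105-56912165) had 0 inclusion and 181 exclusion reads, against 1 and 218. An 82-nt exon of SP100 (chr2:230440476-230440557) had 3 and 175, against 1 and 114. In the TRIM25 and SP100 exons the level was 0.01 in both lines.

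Exons of IFI16 and SP100 with intermediate deposited levels had similar levels in both lines. In IFI16 a 168-nt coding exon at chr1:159045297-159045464 had a level of 0.68 (0.61 to 0.75) in MDA-LM2 against 0.67 (0.63 to 0.72) in MDA-Parental. Exclusion reads were 30 beside 337 inclusion reads, against 70 beside 713, or 8.17% (5.58 to 11.5) against 8.94% (7.04 to 11.2). The exon holds 56 codons. In the annotated transcript where it joins directly to an exon that starts at chr1:159051679, there are 729 codons with it and 673 without it. In the event counted above, the next exon is instead a second copy, at chr1:159049432-159049599, identical in all 168 of 168 bases. Skipping there leaves the second copy in place, so these codon counts do not describe that event. Reads inside a copy, or from the upstream exon into it, have the same bases for both copies. The exclusion share above therefore cannot be read as a share of skipping. In the event with the exon at chr1:159051679 downstream, the level was 0.76 against 0.80. Exclusion reads there were 8 beside 254 inclusion reads, against 16 beside 544, or 3.05% against 2.86%. The sequence printed is from the annotated transcript, where 1 copy joins directly to the exon that starts at chr1:159051679. The second copy is therefore not in it. Any effect of the repeat on the level was not tested.
IFI16 exon included: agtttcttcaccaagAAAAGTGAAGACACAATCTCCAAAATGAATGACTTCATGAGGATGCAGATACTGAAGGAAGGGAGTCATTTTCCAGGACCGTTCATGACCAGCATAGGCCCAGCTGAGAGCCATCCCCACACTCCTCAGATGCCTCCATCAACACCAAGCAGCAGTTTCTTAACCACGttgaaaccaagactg

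A 75-nt coding exon of SP100 stood at 0.87 in MDA-LM2 against 0.84 in MDA-Parental, with 530 inclusion and 51 exclusion reads against 343 and 42. In ADAR a 307-nt exon stood at 0.02 in both lines, with 8 and 50 reads against 11 and 63. The 105-nt exon of TNFSF10 had a level of 0.56 (0.21 to 0.89) against 0.93 (0.84 to 0.99) but only 3 inclusion reads and 0 exclusion reads in MDA-LM2, too few to compare.

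**Figure D5:**
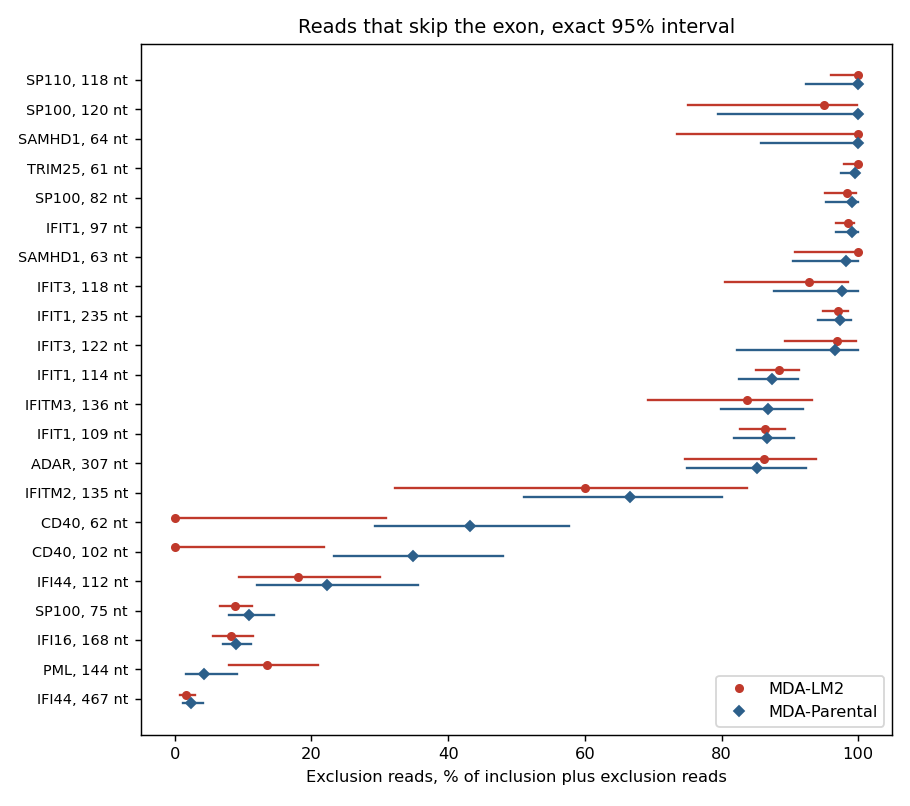
Exclusion reads as a percentage of inclusion plus exclusion reads, with exact 95% intervals, in MDA-LM2 (red circles) and MDA-Parental (blue diamonds), for those of the 72 member exons compared, 22 exons of 13 members, that had at least 20 exclusion reads over both lines. Among these 22 the intervals overlap in every exon but the 102-nt version of CD40 exon 6 (0% against 34.9%), and the 62-nt version, with 0% against 43.1%, comes near it.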

How the data were processed

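Total RNA of 2 MDA-LM2 and 2 MDA-Parental samples was made into ScriptSeq v2 libraries, per the labels' protocols, and aligned with STAR 2.7 to hg38, per the submitters' processing notes. MISO, per the file headers, gave the values of skipped exons. No source used here gives its version, its events or whether samples were pooled. The deposited tables name no replicate and give, per event, the inclusion level as a fraction with its interval and the read counts that match the isoform with the exon, the isoform without it, both or neither. The difference between lines is a score in the authors' deposited table, and the Bayes factor there is a ratio.

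Event reads (inclusion, exclusion and both) were scaled per 1000000 event reads of the table (RPM). A gene was read at its event with most event reads over both lines, and compared with at least 20. Events of the same gene can share reads, so a range over them is not a set of separate measurements. Ratios have exact conditional 95% intervals (scipy 1.17.1, Python 3.11.15). They were tested only on simulated independent counts, the setting they assume, so the test does not show how they hold for real reads. Reads are not independent molecules, so intervals cover counting error only. A read-based level, where given, divides inclusion reads by 2. Exons needed 10 inclusion plus exclusion reads in each line, and each exon entered once.

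No replicate stands behind a value, so there is no p-value. The members, gene lists and rules were chosen with earlier results of these data known. Every member with an event is named. Full values go to members past 2-fold, counted exons, members listed for 1 line, and the 6 exons with the largest difference and the 6 with most exclusion reads. Exons were annotated with GENCODE release 29, which 116 of 123 matched, and 69 were coding. Events of overlapping genes on the same strand, 9 of the 134, were kept. Alternatives were other read classes, totals, filters, events and thresholds. One gene of the pathway lists is not reported here by name.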

Additional observations from a re-analysis of the deposited data

How the results depend on the processing

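Without replicates, the alternatives cover processing only. The 2 higher members became 4 with reads of all 4 classes, and 3 relative to the median gene. With inclusion and exclusion reads alone 35 members were compared, 3 were higher (SP110, SAMD9 and IFIT1) and TRIM5, XAF1 and MX2 had too few reads to compare. The 6 lower members were between 4 (all 4 classes) and 8 (inclusion and exclusion reads alone, or the sum over a gene's events). With all 4 classes IRF7 turned round, to a ratio of 2.19 against 0.903, and DDX60 (0.686) and MX2 (0.684) were no longer past 2-fold; the cause was not tested. SAMD9 passed 2-fold with all 4 classes (2.01), with inclusion and exclusion reads alone (2.34) and relative to the median gene (2.13). With inclusion and exclusion reads alone, TNFSF10 was at 0.037 in place of 0.0958, DDX60 at 0.195 in place of 0.361, MX1 at 0.782 in place of 1.32 with an interval that includes 1 under both, IFIT3 at 1.15 in place of 1.74, and IFIT1 (2.15), IFITM2 (0.391), IFITM3 (0.371), DHX58 (0.370) and LAP3 (0.473) passed. With the sum over events, DHX58 (0.424) and NLRC5 (0.422) passed. Relative to the median gene, the members' median log2 ratio was -0.14 in place of -0.26. Of the other pathway genes 1 was higher with inclusion and exclusion reads alone and 1 with the sum over events, in place of 0. The count of higher exons was 2 at a Bayes factor of at least 5, 0 at 20 and 0 where inclusion and exclusion reads had to reach 20 in each line, in place of 1, so the CD40 result rests on the chosen limits. At 9 to 45 reads, DDX60, XAF1, MX2 and the pathway gene JAK1 are limited by depth. No paired analysis was possible because the tables carry no replicate columns, and leaving out a replicate was not possible for the same reason.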
